A study of Mus musculus with 12 samples.

Results

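The interferon-inducible p200 genes form a cluster on mouse chromosome 1, and 9 of them are described here in preosteoclasts with and without the histone demethylase LSD1. The members are Ifi203, Ifi204, Ifi205, Ifi206, Ifi207, Ifi209, Ifi211, Ifi213 and Mndal, taken by symbol from the 57010 genes in the count data. All 9 were among the 15425 genes that passed the filter on low counts and were tested. The family was selected on results of these same libraries, the log2 fold changes of LSD1cKO against LSD1WT among them, so its values in that comparison are given as a description. Many proteins of the family carry a DNA-binding HIN domain, often behind a PYRIN domain for protein-protein contacts. The genes of the family are induced by type I interferon, which signals to the nucleus through the receptor chains Ifnar1 and Ifnar2 and factors such as Stat2 and Irf9. Interferon-β is also known as a brake on osteoclast formation.

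RNA was sequenced from 12 cultures of bone marrow of female mice. The cells of all groups had grown for 2 days in medium containing RANKL and M-CSF, a treatment that drives marrow precursors toward osteoclasts. LSD1cKO mice had floxed LSD1 deleted by LysM-Cre, which is driven by the Lyz2 promoter and acts in myeloid cells, and LSD1WT mice kept LSD1. Whether the LSD1WT mice carried the Cre or the floxed alleles is not given in the sources used here. Each genotype gave 2 libraries of mandible marrow and 2 of femur marrow from mice with maxillary ligatures for 7 days, and 2 of femur marrow from mice without ligatures. Ligatures were placed at 2 months of age, and the sequencing methods give a somewhat older age. No unligated mandible was analysed here. The libraries came from 9 mice by their labels, and both sites were sampled in 3 of these mice (1 LSD1WT and 2 LSD1cKO). Total counts ran from 21375805 to 32526751 per library. Levels are given as CPM, the reads of a gene scaled to one common library size after adjustment for library composition.

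Checks of the labels bear on what follows. Kdm1a, which encodes LSD1, was at 61.2 to 71.3 CPM in the 6 LSD1WT libraries and at 15.6 to 24.3 CPM in the 6 LSD1cKO libraries, without overlap. The 1 LSD1WT mandible library numbered replicate 3 is a mandible culture by its title and a femur culture by its library name. It was kept as mandible. The 2 LSD1WT mandible libraries had the smallest spread of the 6 pairs. Their coefficient of variation between replicates, beyond counting error, was 0.0246, against 0.0965 to 0.716 in the other pairs. Whether they are separate mice or repeats of 1 culture was not tested, and every comparison with LSD1WT mandible rests on this pair. In replicate 2 of the LSD1WT femur cultures, the summed level of 11 osteoclast marker genes was 0.408% of that in replicate 1 with ligature and 0.632% without, although none of the 11 was at 0. These 2 libraries stand apart, and the main comparisons of the members that rest on them are given with and without them. Correlations and test results of single genes outside the 9 members are given with them only. Fewer cells of a type and less RNA per cell cannot be told apart in such bulk cultures.

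A short stretch of DNA near the start of these genes is shown first, because 7 of the 8 members with a promoter in the reference share it. RefSeq promoters (GRCm38.p6, 250 bases before to 50 bases after the start) were searched on both strands for the core of the interferon-stimulated response element, spelled GAAANNGAA, to which IRF9 and other IRF proteins bind. The element was found in 8.56% of all 32851 promoters of the same length. The windows below hold 60 bases each on the strand of the gene, with the match in capitals, and are ordered along the cluster.
Ifi206, chr1:173491319-173491378, minus strand: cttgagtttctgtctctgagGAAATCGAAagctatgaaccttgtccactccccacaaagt
Ifi213, chr1:173599306-173599365, minus strand: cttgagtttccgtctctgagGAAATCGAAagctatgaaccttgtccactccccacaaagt
Ifi207, chr1:173741811-173741870, minus strand: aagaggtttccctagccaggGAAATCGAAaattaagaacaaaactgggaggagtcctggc
Mndal, chr1:173880184-173880243, minus strand: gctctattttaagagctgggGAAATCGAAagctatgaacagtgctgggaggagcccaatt
Ifi211, chr1:173913044-173913103, minus strand: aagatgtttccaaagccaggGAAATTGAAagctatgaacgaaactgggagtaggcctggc
Ifi203, chr1:173942488-173942547, minus strand: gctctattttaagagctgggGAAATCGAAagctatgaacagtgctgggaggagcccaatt
Ifi205, chr1:174031850-174031909, minus strand: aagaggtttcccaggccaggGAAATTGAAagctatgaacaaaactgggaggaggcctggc

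In 5 of these 7 members the letters were GAAATCGAA, and in Ifi205 and Ifi211 they were GAAATTGAA. The match began 35 bases before the start in Ifi203, 36 in Mndal, 37 in Ifi211, 40 in Ifi206, 41 in Ifi207 and 73 in Ifi213, and 134 bases before it in Ifi205. Ifi205 had a further match on the other strand, 24 bases after the start. Of all promoters, 0.658% held GAAANNGAA on the strand of the gene between 30 and 80 bases before the start, and 0.0274% held GAAATCGAA there. This range holds the matches of 6 members and leaves out those of Ifi205. Because the range and the letters follow the matches of the members themselves, these shares are a description and not a test. The windows of Ifi203 and Mndal were identical over all 60 bases, and the 21 pairs of windows shared a median of 37 bases. Matches in windows so alike are not independent of each other. The 8 members had 10 promoters in the reference, since Ifi203 and Mndal have a second one each. The second of Ifi203 had no match, and the second of Mndal had a match on the other strand. The share of all promoters is per promoter and not per gene. The window of Ifi209 had no match in these letters, and no promoter was given for Ifi204. The interferon-gamma element TTCNNNGAA, held by 8.3% of all promoters, had no match in the windows of the 8 members, and neither had GGAANNGAA, a joint site of PU.1 and IRF factors held by 8.24%. A match is a string of letters and not evidence of binding, and a missing match says only that these letters are not in the window. Such near-identical copies also mean that reads could be shared between members, Ifi203 and Mndal above all, and how the counting treated reads with several placements is not given in the sources used here.

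Per length of exon, Ifi207 was the most abundant member in every condition. In LSD1WT mandible cultures its mean was 39.1 CPM per kb, against 2.42 for Mndal, the next in order. Ifi204, Ifi209 and Ifi211 followed at 1.17, 1.13 and 1.08 CPM per kb, with overlapping or adjoining ranges, and Ifi203 was at 0.901. Ifi206, Ifi205 and Ifi213 closed the order at 0.487, 0.103 and 0.017 CPM per kb. In LSD1cKO femur cultures with ligature the order was Ifi207 (115 CPM per kb), Ifi209 (88.0), Ifi204 (75.4), Ifi211 (52.7), Mndal (50.3), Ifi203 (35.7), Ifi206 (9.28), Ifi213 (7.06) and Ifi205 (4.996). The 2 libraries of Ifi209 overlapped with those of Ifi204, those of Ifi211 with those of Mndal, and those of Ifi213 with those of Ifi205, so these neighbours were not separated by their spread. Ifi209 thus stood at rank 4 in LSD1WT mandible and at rank 2 in LSD1cKO femur cultures. Lengths came from a mouse annotation of an earlier build than the counts.

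**Figure D1:**
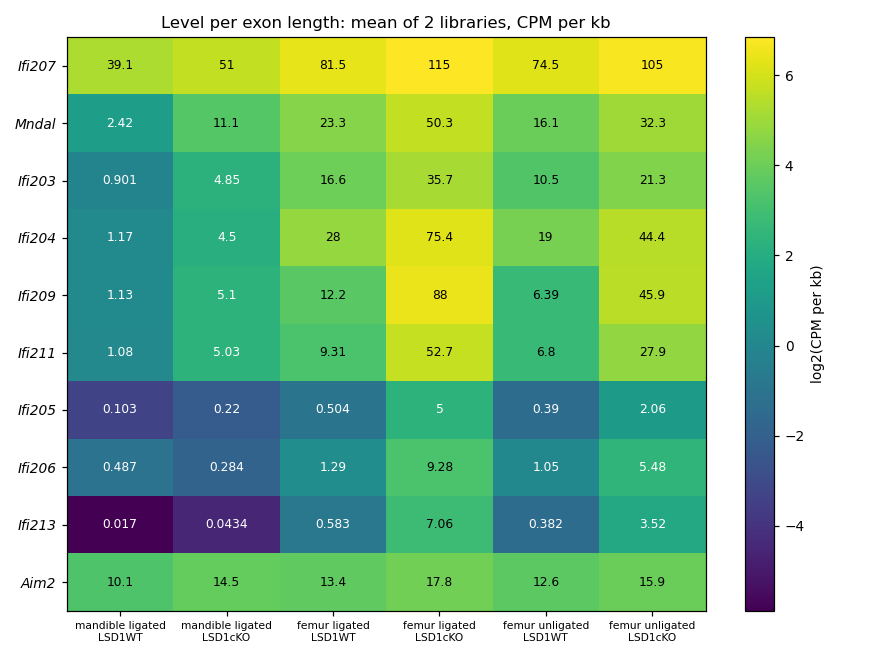
Mean level per exon length (CPM per kb, mean of 2 libraries, colour on a log2 scale) of the 9 members and of Aim2 in the 6 conditions. Ifi207 is highest in every column, from 39.1 to 115 CPM per kb, while Ifi213 runs from 0.017 to 7.06.

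The share of Ifi207 in the family's reads moved accordingly. It held 83.9% (95% Wilson interval 82.7 to 85.0) and 82.5% (81.4 to 83.6) of all member counts in the LSD1WT mandible libraries. In the LSD1cKO mandible libraries it held 63.0% and 57.2%, and in the LSD1cKO femur libraries with ligature 26.5% and 23.1%. The summed level of the 9 members was 159.9 and 161.3 CPM in the former mandible libraries and 1488 and 1686 CPM in the latter femur libraries. The intervals cover counting error only.

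LSD1cKO cultures were compared with LSD1WT cultures to ask what the loss of LSD1 does to the family. Over the 3 cultures, the 6 libraries per genotype came from 5 LSD1WT and 4 LSD1cKO mice. The edgeR fit, also used for other genes below, took the libraries of 1 mouse as independent. The fitted value of every member was higher in LSD1cKO, as it was for 40.9% of all genes tested. Log2 fold changes of the 9 ran from 0.46 to 3.08 around a median of 1.65, against -0.06 over all genes. Ifi205, Ifi209, Ifi211 and Ifi213 passed the threshold of 0.05 in edgeR's quasi-likelihood test after Benjamini-Hochberg adjustment. Of all genes tested, 3% were called higher. The call of Ifi205, with an adjusted p of 0.0294 in this edgeR test, was lost in 8 of the 12 fits that left out 1 library. The remaining 5 members did not pass. Since this contrast chose the members, nothing is read from the count. Without replicate 2 of both LSD1WT femur cultures, 8 of 9 members passed, all but Ifi206, among 3867 genes called in all. DESeq2 called 8 as well, all but Ifi207, among 1248 genes. Limma voom with a random effect per mouse called 4 members.

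Among the more abundant members Ifi209 had the largest fold change over the 3 cultures. Its level was 3.63 and 4.40 CPM in LSD1WT mandible cultures and 12.2 and 24.0 CPM in LSD1cKO mandible cultures. With ligature, femur cultures held 13.6 and 72.7 CPM in LSD1WT and 264.8 and 359.8 CPM in LSD1cKO. In femur cultures without ligature it was 26.3 and 19.0 CPM in LSD1WT and 126.8 and 199 CPM in LSD1cKO. LSD1cKO was above LSD1WT within each culture, although the LSD1cKO mandible libraries lay within or below the range of the LSD1WT femur libraries. The log2 fold change over the 3 cultures was 2.63 ± 0.38 (SE).

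Ifi211 behaved much like Ifi209 at a lower level. Mandible cultures held 1.88 and 1.98 CPM in LSD1WT against 6.80 and 11.2 CPM in LSD1cKO. Femur cultures with ligature held 5.43 and 27.8 CPM in LSD1WT against 85.4 and 102.9 CPM in LSD1cKO. Those without ligature held 10.6 and 13.7 CPM in LSD1WT against 44.3 and 55.3 CPM in LSD1cKO. The groups did not overlap within any of the 3 cultures, and the log2 fold change over them was 2.25 ± 0.34 (SE).

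Ifi203, Ifi204 and Mndal had smaller fold changes, and in each femur culture replicate 2 of LSD1WT lay nearer to LSD1cKO than replicate 1 did. Ifi204 encodes a nuclear and cytosolic DNA sensor that works upstream of STING and has roles in macrophage and bone cell differentiation. Its level was 3.71 and 4.59 CPM in LSD1WT and 10.03 and 22.0 CPM in LSD1cKO mandible cultures. In femur cultures with ligature it was 19.6 and 180 CPM in LSD1WT and 247 and 290 CPM in LSD1cKO. Replicate 2 of LSD1WT lay far above replicate 1 there and just below the LSD1cKO libraries. Without ligature Ifi204 was at 38.5 and 96.5 CPM in LSD1WT and 140.9 and 175.7 CPM in LSD1cKO. Its log2 fold change over the 3 cultures was 1.53 ± 0.46 (SE) and moved to 2.498 ± 0.36 without those replicate 2 libraries.

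Mndal, the mouse relative of the myeloid nuclear differentiation antigen, and Ifi203 gave a similar picture. Mndal was at 8.77 CPM in both LSD1WT mandible libraries and at 35.8 and 44.6 CPM in LSD1cKO. In femur cultures with ligature LSD1WT reached 22.2 and 147 CPM against 175.4 and 189.7 CPM in LSD1cKO. Without ligature the levels of Mndal were 29.6 and 87.0 CPM in LSD1WT against 93.7 and 140.7 CPM in LSD1cKO. Replicate 2 of LSD1WT was again the library nearest to LSD1cKO. Its log2 fold changes were 2.20 ± 0.79 in mandible, 1.11 ± 0.76 in ligated femur and 1.01 ± 0.76 in unligated femur (SE). Ifi203 stood at 5.96 and 6.13 CPM in LSD1WT against 24.9 and 40.1 CPM in LSD1cKO in mandible, at 20.1 and 202 CPM against 239 and 240.1 CPM in ligated femur, and at 36.0 and 105 CPM against 129 and 156 CPM in unligated femur. Its log2 fold changes were 2.43 ± 0.91, 1.11 ± 0.87 and 1.01 ± 0.86. The fitted values of both genes were larger in mandible than in femur, within wide errors, and this order turned without the LSD1WT femur replicate 2 libraries. Ifi203 was then at 2.46 ± 0.24 in mandible against 3.66 ± 0.32 in ligated femur, and Mndal at 2.23 ± 0.22 against 3.13 ± 0.29 (SE).

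Ifi207, the abundant member, had the smallest difference. In mandible cultures it stood at 134 and 133 CPM in LSD1WT against 155.6 and 193.2 CPM in LSD1cKO. With ligature, femur levels were 199 and 359 CPM against 394 and 390 CPM, and without it 200.7 and 309 CPM against 385 and 332 CPM. The genotypes did not overlap within a culture, yet its log2 fold change over the 3 cultures was only 0.46 ± 0.16 (SE).

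Ifi205, Ifi206 and Ifi213 were the low members, and their genotype values were the most uneven between sites. Ifi205 had 5 and 18 counts in the LSD1WT and 21 and 36 counts in the LSD1cKO mandible libraries, a depth-adjusted ratio of 2.09 with a counting interval from 1.27 to 3.55. Its fitted log2 value in mandible was 0.51 without LSD1WT replicate 1 and 2.17 without LSD1WT replicate 3. In femur cultures with ligature LSD1WT reached 1.39 and 2.82 CPM against 16.4 and 25.3 CPM in LSD1cKO, and without ligature 2.63 and 0.621 CPM against 9.80 and 7.40 CPM. The femur groups of Ifi205 did not overlap. Ifi213 had 3 counts in each LSD1WT mandible library and 2 and 17 counts in the LSD1cKO ones, a ratio of 2.67 with an interval from 1.02 to 8.16. The genotypes overlapped there, and without the LSD1cKO library with 17 counts the fitted log2 fold change of Ifi213 turned to -0.70. In femur cultures with ligature Ifi213 stood at 1.88 and 6.11 CPM in LSD1WT against 39.6 and 57.0 CPM in LSD1cKO, and without ligature at 3.78 and 1.45 CPM against 13.4 and 34.7 CPM, again without overlap.

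Ifi206 was the exception in direction. In mandible cultures LSD1WT held 1.47 and 1.504 CPM against 0.65 and 1.08 CPM in LSD1cKO, so both LSD1cKO libraries were lower. In femur cultures with ligature LSD1WT held 2.98 and 4.93 CPM against 25.7 and 31.0 CPM, and without ligature 4.39 and 2.03 CPM against 17.4 and 16.1 CPM. Both femur comparisons put LSD1cKO higher, without overlap. The log2 fold changes were -0.77 ± 0.44 in mandible, 2.85 ± 0.44 in ligated femur and 2.38 ± 0.44 in unligated femur (SE).

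**Figure D2:**
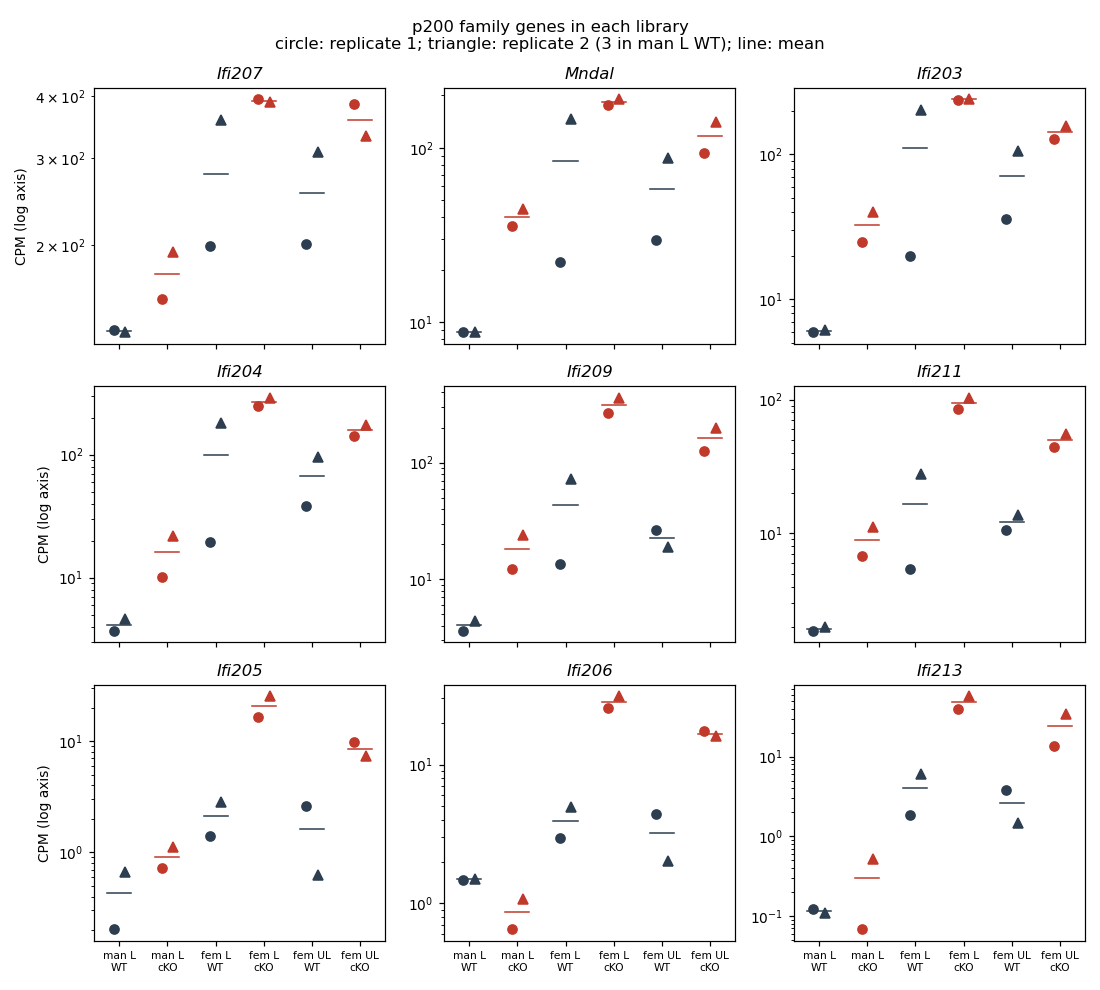
Level of each member in the 12 libraries (CPM, log axis) by condition, where man is mandible, fem is femur, L is ligated and UL is unligated. Points are libraries and lines are means. LSD1cKO lies above LSD1WT in each femur panel, while Ifi206 in mandible is at 0.65 and 1.08 CPM in LSD1cKO, below the 1.47 and 1.504 CPM of LSD1WT.

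Within single cultures the counts were as follows. In mandible 7 members were higher in LSD1cKO without overlap, beside 34.1% of all genes tested, and Ifi206 was lower, beside 34.8%. In femur with ligature all 9 were higher without overlap, beside 14.8% of all genes, and in femur without ligature all 9, beside 9.82%. In each of the 3 cultures at once 7 members were higher, against 5.17% of all genes. No member had every LSD1cKO library above every LSD1WT library over all 12, which 1.98% of genes did. No member passed the adjusted threshold within a single culture in edgeR's quasi-likelihood test after Benjamini-Hochberg adjustment, where 0% of genes were called higher. At an unadjusted p under 0.05, 4 members were higher in mandible and 5 in each femur comparison, beside 3.81%, 3.91% and 3.61% of all genes. DESeq2 called 0, 5 and 3 members among 146, 217 and 122 genes. The edgeR spread was shared over the 6 conditions, and the LSD1WT femur pairs varied most (0.716 with ligature and 0.664 without). With only the compared libraries, 6 of 8 members tested passed in mandible among 5434 genes, and 0 in either femur comparison. That mandible fit rests on the small spread of its LSD1WT pair. Without the LSD1WT femur replicate 2 libraries, the median log2 fold change in ligated femur moved from 2.51 to 3.86.

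**Figure D3:**
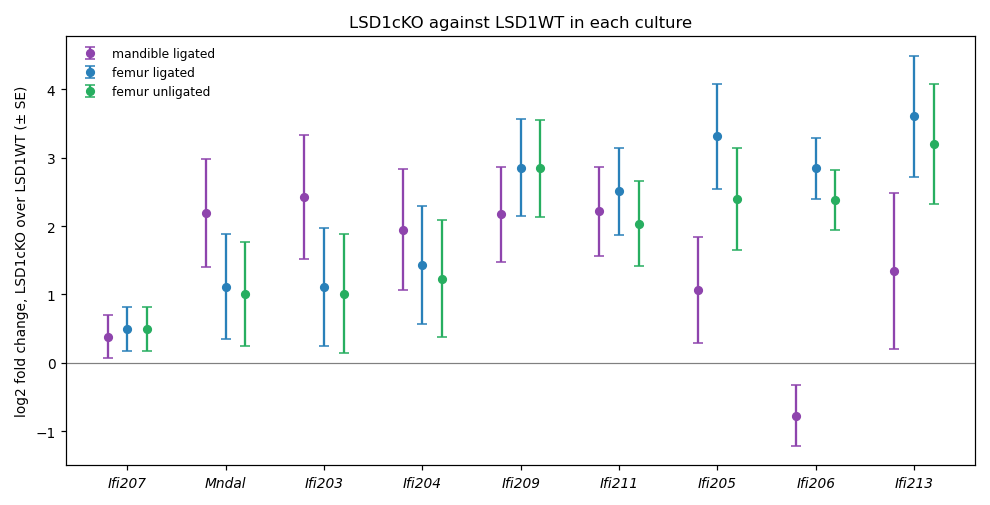
Log2 fold change of LSD1cKO over LSD1WT (points, with SE bars) for the 9 members in the 3 cultures, with 2 libraries per condition. Values lie above 0 except that of Ifi206 in mandible, at -0.77 ± 0.44.

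Whether the genotype effect differed between sites was tested as an interaction in ligated mice. In edgeR's quasi-likelihood test none of the 9 members passed after Benjamini-Hochberg adjustment, and 0% of all genes were called. Ifi206 had the largest difference of the 9, with a log2 value of -3.62 ± 0.62 (SE) for mandible minus femur, an unadjusted p of 0.000307 and an adjusted p of 1.00. It was 1 of 63 genes, or 0.408%, lower at an unadjusted p under 0.05. DESeq2 called 1 gene in this comparison, and that gene was Ifi206, with an adjusted p of 0.000961. The mandible side of this value rests on 36 and 41 counts in LSD1WT and 19 and 35 in LSD1cKO. Since the family was selected on the genotype fold changes that this interaction compares, the values of its members are a description. Ifi205 and Ifi213 had values of -2.25 ± 1.06 and -2.26 ± 1.505 (SE), while those of Ifi203 and Mndal were 1.32 ± 1.22 and 1.08 ± 1.07. Without the LSD1WT femur replicate 2 libraries the last 2 values turned to -1.20 and -0.90. The interaction between ligature and genotype in femur cultures ran from 0.000132 for Ifi207 to 0.92 for Ifi205, and no member and 0% of genes passed.

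The skeletal site of the marrow was compared within each genotype. All 9 members were lower in mandible than in femur cultures of ligated mice in both genotypes, and the libraries did not overlap. Lower values without overlap were seen for 31.5% of all genes in LSD1WT and 35% in LSD1cKO. The median log2 fold change of mandible over femur was -3.26 in LSD1WT, from -5.04 to -1.06, and -4.07 in LSD1cKO, from -7.30 to -1.17, while the medians over all genes were -0.03 and -0.00. Every member had an unadjusted p under 0.05 in this direction in both genotypes, against 14.7% of all genes in LSD1WT and 6.81% in LSD1cKO. After Benjamini-Hochberg adjustment of edgeR's quasi-likelihood test across all 12 libraries none of them passed, with adjusted p from 0.167 to 0.2002 in LSD1WT and from 0.0736 to 0.248 in LSD1cKO, and no gene of the 15425 did.

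In LSD1cKO, where the same 2 mice gave both sites, a fit of these 4 libraries with the mouse as a block called all 9 members lower in mandible, with adjusted p from 6.15e-11 to 4.02e-05 in edgeR's quasi-likelihood test after Benjamini-Hochberg adjustment. That fit called 5530 genes in all and rests on the spread between 2 mice. DESeq2 called 8 members in LSD1cKO, all but Mndal, among 810 genes, and all 9 in LSD1WT among 1190 genes. Without replicate 2 of both LSD1WT femur cultures, all 9 members passed in LSD1cKO among 3466 genes, and 1, Ifi203, passed in LSD1WT among 144 genes, where the median moved to -1.62. Without the mandible LSD1WT library whose labels conflict, all 9 members in LSD1WT stayed lower, from -4.92 to -1.01, and none passed, with an adjusted p of 0.631 in edgeR's quasi-likelihood test.

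Ratios within single mice give the size of the site difference. In LSD1WT mouse 1 the femur level was 1.48 to 15.3 times the mandible level, with a median of 3.37 over the 9 members. In LSD1cKO mouse 1 it was 2.54 to 577 times, with a median of 21.7, and in LSD1cKO mouse 2 it was 2.02 to 108 times, with a median of 13.2. Ifi207 had the smallest ratio in each mouse and Ifi213 the largest, where the 577 rests on 2 mandible counts and is not a firm size. For Ifi206 the ratio was 2.03 in the LSD1WT mouse and 39.3 and 28.7 in the LSD1cKO mice. For Ifi204 it was 5.29 in the LSD1WT mouse and 24.6 and 13.2 in the LSD1cKO mice. Only 1 LSD1WT mouse had both sites, so these ratios were not tested between genotypes. The ratio of Ifi213 from mandible to femur rests on 6 and 19 mandible counts and had counting intervals from 13.6 to 83.7 in LSD1WT and from 98.8 to 257 in LSD1cKO. A set of 8 macrophage marker genes moved with the site as well, at 2825 to 3524 summed CPM in mandible and 6521 to 44654 in ligated femur. Lyz2 gave a large part of that sum, at 1232 to 1592 CPM in mandible and 3195 to 35330 CPM in ligated femur. The upper ends in femur were those of LSD1WT replicate 2. The part of this marker set in the result was not tested.

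**Figure D4:**
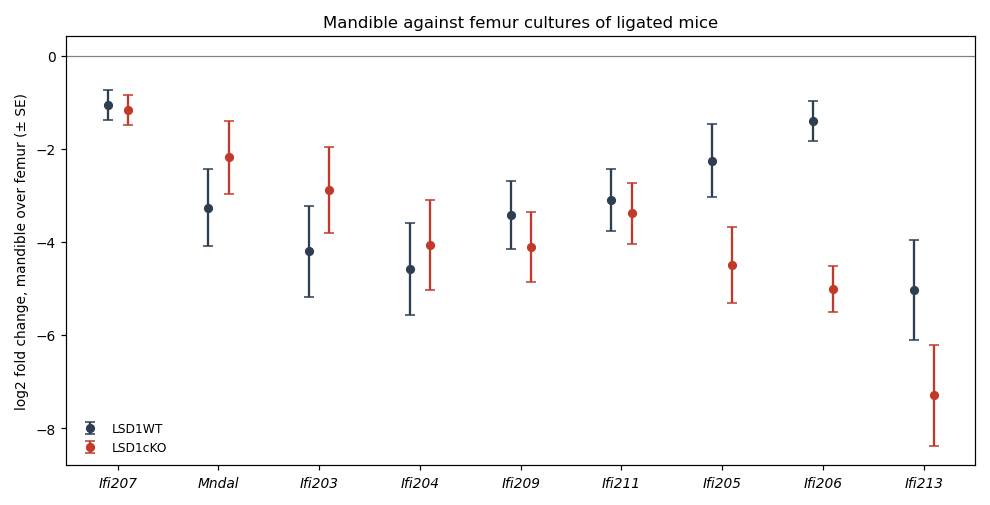
Log2 fold change of mandible over femur (points, with SE bars) in LSD1WT and LSD1cKO cultures of ligated mice. All 18 values lie below 0, from -1.06 for Ifi207 in LSD1WT to -7.30 for Ifi213 in LSD1cKO.

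Ligatures around the molars of the maxilla were compared with none in femur cultures, to ask whether the family responds to a distant inflammation. In LSD1cKO all 9 members were higher in ligated mice without overlap, beside 14% of all genes, and log2 fold changes ran from 0.13 to 1.28 around a median of 0.76. Ifi205 had the largest value at 1.28 ± 0.71 and Ifi207 the smallest at 0.13 ± 0.32 (SE). None passed in edgeR's quasi-likelihood test after Benjamini-Hochberg adjustment, 0% of genes did, and no member had an unadjusted p under 0.05, beside 0.499% of genes higher at that level. DESeq2 called no member. In LSD1WT every member overlapped between ligated and unligated mice, beside 5.25% of genes that were higher without overlap. The median was 0.53, and it turned to -0.97 without the replicate 2 libraries.

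Those 2 LSD1WT femur libraries differed from replicate 1 unevenly across the family, and only the unligated one differed in both directions. In ligated mice replicate 2 exceeded replicate 1 for every member, 10.1 times for Ifi203, 9.15 for Ifi204, 6.62 for Mndal, 5.33 for Ifi209, 5.12 for Ifi211, 3.26 for Ifi213, 2.03 for Ifi205, 1.80 for Ifi207 and 1.66 for Ifi206. In unligated mice replicate 2 was higher by 2.93 times for Ifi203, 2.94 for Mndal, 2.51 for Ifi204, 1.54 for Ifi207 and 1.30 for Ifi211. It was lower there for Ifi209, Ifi206, Ifi213 and Ifi205, with ratios of 0.72, 0.46, 0.38 and 0.24. Along the cluster Ifi207, Ifi204, Mndal, Ifi211 and Ifi203, the genes higher in the unligated library, stand next to each other among the members. Ifi206, Ifi213 and Ifi209 lie on one side and Ifi205 on the other. With ligature the ratios did not follow this grouping, since Ifi207 was below Ifi213 and Ifi205, and Ifi209 was above Ifi211. The same ratios in LSD1cKO ran from 0.76 to 2.59. This grouping was noticed after the values were seen and was not tested.

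**Figure D5:**
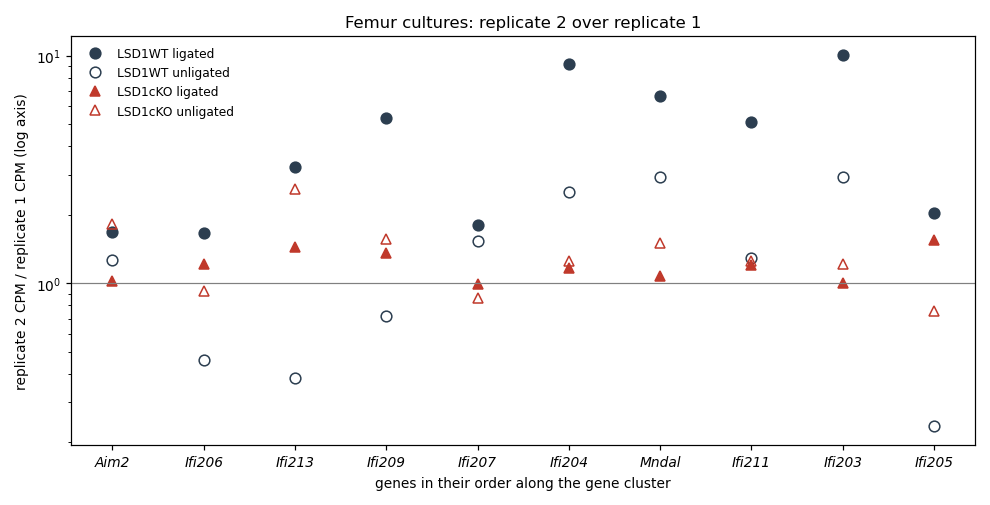
Replicate 2 CPM over replicate 1 CPM (log axis) in femur cultures, for Aim2 and the members in their order along the cluster. In LSD1WT the ratio reaches 10.1 for Ifi203 with ligature and drops to 0.24 for Ifi205 without.

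The count data listed 5 further rows of the family, and these did not all follow the members. Aim2, the sensor that assembles an inflammasome on cytosolic DNA, ran from 34.4 to 71.5 CPM over the 12 libraries, with a log2 fold change of 0.42 ± 0.17 (SE) for LSD1cKO and an adjusted p of 0.239 (edgeR's quasi-likelihood test). Its femur level was 1.02 to 1.25 times the mandible level within the 3 mice. Ifi202b, which lacks the PYRIN domain and restrains Aim2, was higher in mandible, at 5.47 to 9.38 CPM, than in the femur libraries where it was detected, at 2.102 to 3.88 CPM. It had 0 counts in replicate 2 of both LSD1WT femur cultures and 59 to 273 counts in the other 10 libraries. Against the 3 counts that a count of 0 allows in a library, replicate 1 was at least 25.2-fold higher with ligature and at least 23.4-fold higher without. The promoter windows of Aim2 and Ifi202b had no match to GAAANNGAA, while those of Ifi208 and Ifi214 held GAAATCGAA, 58 and 79 bases before the start.

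Ifi214 had no counts in the 4 mandible libraries and 10 to 45 counts in the 4 LSD1cKO femur libraries, against 1 to 7 in the LSD1WT ones. Ifi208 had 135 counts in LSD1cKO femur without ligature replicate 2 and 51 in LSD1WT femur with ligature replicate 1, but 0 to 15 in the other 10 libraries. The row Ifi203-ps was higher in LSD1cKO by a log2 fold change of 2.04 ± 0.37 (SE), with an adjusted p of 0.0143 in edgeR's quasi-likelihood test. Its sequence may share reads with Ifi203.

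The members varied together over the 12 libraries. Pearson correlations of log2 CPM ran from 0.727 to 0.994 over the 36 pairs, with a median of 0.929. These are descriptions over libraries that share genotype, site and depth. The genes outside the family most like its mean profile were Ifi47 (r = 0.996), Epsti1, Tgtp2, Herc6, Gbp9, Parp10, Parp9, Samd9l, Zbp1 and Irgm1 (r = 0.992), over 12 libraries, and 121 of 15411 genes reached 0.95. Ifi47, Tgtp2, Gbp9 and Irgm1 encode interferon-inducible GTPases, and Zbp1 a sensor of nucleic acids in the Z form. Ranked by Spearman correlation, 5 of the 10 stayed in the list. Aim2 correlated with the mean of the members at 0.729, Ifi203-ps at 0.955, Ifi214 at 0.933, Ifi208 at 0.0198 and Ifi202b at -0.376.

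Genes of the interferon pathway were read beside the family, from a list made with earlier results of these data known, so its counts are not independent evidence. Of the 43 on the list 33 were tested. Over the 3 cultures 15 of these rose in LSD1cKO and 0 fell, in edgeR's quasi-likelihood test after Benjamini-Hochberg adjustment. Beside them, 3% of all genes tested were called higher. None of the 9 ligands passed the filter on low counts, and Ifnb1 reached at most 0.263 CPM. None of the 7 receptor chains and kinases passed the test, with Ifnar1 at 0.18 ± 0.20 (log2 fold change, SE) and Ifnar2 at -0.37 ± 0.38. Among the transcription factors Irf7 rose by 2.71 ± 0.42, while Stat2 at 0.85 ± 0.37 and Irf9 at 0.87 ± 0.36 did not pass. Of the 4 tested inhibitors Usp18, which blocks the receptor, rose by 2.74 ± 0.42, Socs1 by 1.17 ± 0.23 and Samhd1 by 0.75 ± 0.17. Of 12 other targets 10 rose, among them the ubiquitin-like Isg15 by 2.65 ± 0.41 and the chemokine Cxcl10 by 3.00 ± 0.53, and their median of 2.40 compares with 1.65 for the 9 members. Mx1 at 1.83 ± 0.46 and Bst2 at 1.03 ± 0.36 did not pass.

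By site, 29 of the 33 tested pathway genes were lower in mandible at an unadjusted p under 0.05 in LSD1WT and 22 in LSD1cKO, and none passed after adjustment. The shares of all genes at that level were 14.7% in LSD1WT and 6.81% in LSD1cKO. For the 12 other targets the median log2 fold change was -5.58 in LSD1WT and -5.33 in LSD1cKO, against -3.26 and -4.07 for the p200 members. Of 12 genes for DNA sensing and inflammasomes, Casp1, the inflammasome protease, rose in LSD1cKO by 0.82 ± 0.17 (SE) over the 3 cultures. The DNA sensor Cgas at 0.60 ± 0.29, its adaptor Sting1 at 0.81 ± 0.34 and Pycard at 0.38 ± 0.30 did not pass. Of 10 genes whose proteins partner with p200 proteins, Runx2, the bone transcription factor, rose by 0.86 ± 0.20.

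The 11 osteoclast markers separated the genotypes in mandible cultures, while in both femur cultures the 2 LSD1WT libraries lay on either side of LSD1cKO. These markers summed to 26378 to 26502 CPM in LSD1WT and 14883 to 15016 CPM in LSD1cKO mandible cultures. In ligated femur cultures the sum was 41296 CPM in LSD1WT replicate 1, 169 CPM in replicate 2 and 17974 to 20496 CPM in LSD1cKO. Without ligature it was 37819 CPM in LSD1WT replicate 1, 239 CPM in replicate 2 and 11678 to 29384 CPM in LSD1cKO. Markers of other marrow cells were low or moved in part with the family. Cd3e, Cd3d and Cd3g of T cells were at 0 in 11, 10 and 11 of 12 libraries. The 8 B cell markers summed to 0.734 to 9.68 CPM. The 7 markers of plasmacytoid dendritic cells, which make type I interferon, summed to 59.4 to 106 CPM in mandible and 76.6 to 354 CPM in ligated femur cultures. Bst2, itself an interferon target, and Tcf4 gave most of that sum, whereas Siglech stayed at 0.704 to 3.90 CPM and Klk1 was at 0 in 11 libraries. The 8 T and NK cell markers summed to 0.326 to 0.859 CPM in mandible and 3.48 to 17.96 CPM in femur cultures, where Cd4 alone reached 17.96 CPM. Over the 12 libraries 10 neutrophil markers summed to 112 to 339 CPM, 6 dendritic cell markers to 6.13 to 34.8 CPM and 5 erythroid markers to at most 0.515 CPM. The 6 stromal markers reached 41.9 CPM in both LSD1WT mandible libraries and 4.85 to 10.1 CPM in the LSD1cKO ones. The part of these cells in the family's differences was not tested.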

How the data were processed

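RNA was measured in 12 libraries, and groups follow their titles. The authors deposited raw read counts per Ensembl gene, with no normalization. The submitters' processing notes name HISAT2 2.1.0, FastQC, featureCounts, edgeR and GRCm39. Counts were analysed in R 4.3.3. Genes were kept with filterByExpr and libraries were scaled by TMM in edgeR 4.0.16. Quasi-likelihood tests used 1 coefficient for each of 6 conditions, or culture and genotype as terms. P-values are two-sided, Benjamini-Hochberg adjusted over all 15425 genes, and held to 0.05. Log2 CPM for correlations used a prior count of 2. The members, gene lists and named genes (the members, the rest of the family, the 10 genes most like the members, and fixed pathway and marker lists) were chosen with earlier results of these data known. Nothing in the labels says that same-condition libraries are separate cultures beyond separate mouse numbers. Alternatives were RLE and upper-quartile scaling, no filter beyond 1 count, DESeq2 1.42.0, limma 3.58.1 voom with a random effect per mouse, only the compared libraries, replicate blocks, and each library left out. Leaving out both LSD1WT femur replicate 2 libraries was added after seeing the data. Pairing comes from mouse numbers in the titles. Deviations of the 2 LSD1cKO mice correlated at 0.026 between mandible and femur, and the consensus correlation of libraries of 1 mouse in the limma fit was 0.519. The scripts were tested on simulated data. Values of 1 gene on the pathway list are not reported here.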

Additional observations from a re-analysis of the deposited data

Results flagged for a closer look

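Ifi206 was singled out because its genotype difference pointed in opposite directions at the 2 sites: every LSD1cKO library was below every LSD1WT library in mandible and above in ligated femur. The log2 difference of the genotype effects, mandible minus femur, was -3.62. It kept its sign in all 19 alternatives run, from -4.08 to -3.35. Because the libraries did not overlap at either site, the fits that left libraries out could not turn the sign. The adjusted p was 0.000961 in DESeq2 and 0.0935 to 1.00 in the alternatives with edgeR, and it was 1.00 in the edgeR quasi-likelihood test as planned. The mandible levels behind it were 0.65 to 1.504 CPM, from 36 and 41 counts in LSD1WT and 19 and 35 in LSD1cKO. Lower values in LSD1cKO mandible without overlap were seen for 34.8% of all genes tested. The family was selected on genotype fold changes of these libraries, so the value of Ifi206 is a description.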

How the results depend on the processing

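Each condition had 2 libraries, and levels under 1 CPM rest on few reads. Of 1718 member values recomputed under alternatives, 1502 kept their direction and their side of the threshold, 151 came to pass it, 8 ceased to pass it and 57 changed sign. The cause was not tested for any of these. RLE and upper-quartile scaling did not turn the sign of the members' median in any of the 10 comparisons.

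With both LSD1WT femur replicate 2 libraries left out (chosen after seeing the data), the genotype comparison over the 3 cultures called 8 members and 3867 genes with a median of 2.498, in mandible 5 and 936, in ligated femur 9 and 1497 with a median of 3.86, and in unligated femur 5 and 396. The site comparison then called 1 member and 144 genes in LSD1WT with a median of -1.62, and 9 and 3466 in LSD1cKO. The site interaction had a median of -1.95, with Ifi203 at -1.20, Ifi204 at -1.88 and Mndal at -0.90, and the ligature interaction one of 1.81. The ligature comparison in LSD1WT turned to a median of -0.97, with Ifi203 at -0.89, Ifi204 at -1.02, Ifi205 at -0.97, Ifi206 at -0.61, Ifi207 at -0.063, Ifi209 at -1.0001, Ifi211 at -1.01, Ifi213 at -1.06 and Mndal at -0.47.

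DESeq2 called 8 members and 1248 genes for genotype over the 3 cultures, 146 genes in mandible, 5 members and 217 genes in ligated femur, 3 and 122 in unligated femur, 1 and 1 for the site interaction, 9 and 1190 by site in LSD1WT, 8 and 810 by site in LSD1cKO, and 2 genes by ligature in LSD1WT and 1 in LSD1cKO. Limma voom gave a median of 2.48 over the 3 cultures. Without the filter on low counts 45 genes were called in mandible, 5 members and 93 genes in ligated femur, 2 and 24 in unligated femur, 6 and 821 by site in LSD1WT, 7 and 329 by site in LSD1cKO, and 1 gene by ligature in LSD1WT, while the ligature interaction of Ifi207 was -0.020 and that of Ifi209 -0.0096. RLE scaling called 9 genes in ligated femur. With only the compared libraries 6 members and 5434 genes were called in mandible, 0 genes in ligated femur, and 9 members and 6101 genes by site in LSD1cKO, and the ligature interaction of Ifi207 was -0.0030.

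The replicate number as a block, which outside the 3 mice with both sites joins different mice, called 0 genes in ligated femur and put the site interaction of Ifi204 at -0.53. Deviations of same-numbered libraries correlated at 0.78 between the LSD1WT femur cultures with and without ligature. With the mouse as replicate block in the 4 LSD1cKO libraries 9 members and 5530 genes were called by site.

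Leaving out each library in turn moved the genes called over the 3 cultures between 298 and 653 and the members called between 3 and 6, with the call of Ifi205 lost in 8 of 12 fits. In mandible 0 to 1 member and 0 to 24 genes were called, and Ifi213 ran from -0.70 to 2.15. In ligated femur 0 to 2 members and 0 to 44 genes were called, with medians from 1.85 to 3.77, and in unligated femur 0 to 16 genes. By site 0 to 8 members and 0 to 3759 genes were called in LSD1WT, with medians from -4.02 to -1.66, and 0 to 9 members and 0 to 688 genes in LSD1cKO. The high ends by site came without femur ligated LSD1WT replicate 1. The site interaction had medians from -1.89 to 0.20, with Ifi203 from -1.14 to 2.13, Ifi204 from -1.82 to 1.31, Ifi207 from -0.59 to 0.20, Ifi209 from -2.34 to 0.013, Ifi211 from -1.89 to 0.40 and Mndal from -0.84 to 1.83. The ligature interaction had medians from -0.32 to 1.67, with Ifi203 from -0.80 to 2.56, Ifi204 from -0.61 to 2.54, Ifi205 from -0.45 to 1.69, Ifi206 from -0.18 to 1.00, Ifi207 from -0.32 to 0.48, Ifi209 from -0.69 to 1.67, Ifi211 from -0.23 to 2.08, Ifi213 from -0.42 to 1.48 and Mndal from -0.79 to 2.03. By ligature in LSD1WT 0 to 31 genes were called, with medians from -0.73 to 1.18, Ifi203 from -1.81 to 1.57, Ifi204 from -1.78 to 1.40, Ifi205 from -0.39 to 1.75, Ifi206 from -0.21 to 0.96, Ifi207 from -0.36 to 0.47, Ifi209 from -0.73 to 1.65, Ifi211 from -1.16 to 1.17, Ifi213 from -0.48 to 1.45 and Mndal from -1.40 to 1.46. A condition left with 1 library was assumed to vary like the others.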
